A study of Mus musculus with 12 samples.

Results

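The genotype by treatment interaction was described over all 12 libraries of the study, 3 in each of 4 groups, chosen by library title. All were bulk RNA-seq libraries of thioglycolate-elicited mouse peritoneal macrophages, collected on day 4 after the injection, plated, and treated the next day for 8 h. The 2 genotypes were LysM-Cre controls and LysM-PPARg knockouts, and the 2 treatments were vehicle (bovine serum albumin and PBS) and 250 uM palmitate with 100 ng/ml LPS. LysM-Cre expresses Cre recombinase from the lysozyme 2 locus in myeloid cells, neutrophils included, and the controls carried it too. Palmitate and LPS were given together, so their parts in a response cannot be told apart, and the labels do not state how many mice were used or whether animals were pooled. For each gene the interaction was the log2 response to palmitate plus LPS in the libraries labelled knockout minus the log2 response in the controls. A higher interaction therefore means a stronger induction or a weaker repression in the libraries labelled knockout, and a lower one the reverse. The same number is the genotype difference in stimulated cells minus the genotype difference in vehicle, which allowed each gene to be sorted by the level that made the difference.

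PPARg is a nuclear receptor that pairs with the retinoid X receptor, binds fatty acid ligands and switches on genes of lipid uptake, storage and oxidation in macrophages. LPS acts through Toll-like receptor 4, which has one arm ending in NF-kB and inflammatory cytokines and another ending in interferon-beta, whose autocrine signalling induces interferon-stimulated genes. An interaction in such a design asks whether the loss of the receptor moves a gene only at rest, only during the inflammatory response, or by the same factor in both, the last of which gives no interaction.

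Library totals lay between 17960457 and 22696385 counts over 41388 genes, and 12914 genes were tested. Pparg itself went against its label. It read 62.3, 61.6 and 61 CPM (the share of a library's counts, scaled by TMM) in the control vehicle libraries and 111, 91 and 95.9 in the vehicle libraries labelled knockout, and fell to 3.63, 2.86 and 4.14 and 3.59, 5.04 and 4.73 with palmitate plus LPS. The vehicle libraries labelled knockout were higher by 0.69 ± 0.11 on the log2 scale (approximate SE, taken from the F statistic; edgeR quasi-likelihood test, adjusted p = 0.00124), and the interaction was -0.36 ± 0.19 (adjusted p = 0.249). A gene total does not check a deletion of single exons, so the groups are called labelled knockout throughout. Vehicle replicate 1 labelled knockout stood apart on the second principal component, at 31.8 against -6.92 and -10 for its 2 partners, and 0.79% of its counts fell in the listed ribosomal protein genes against 0.578% and 0.589%. The 9 general macrophage markers, none at 0, summed to 6143-6944 CPM in control vehicle and 6966-8889 in labelled knockout vehicle libraries. When stimulated they summed to 7034-7954 in controls and 7519-7800 in the libraries labelled knockout. Of these 9, 2 had a higher interaction and 2 a lower one, against 4.7% and 3.35% of all tested genes. The 14 fibroblast and mesothelial markers were all detected and summed to 278-322 CPM in control vehicle, 384-434 in labelled knockout vehicle, 300-334 in control stimulated and 436-649 in labelled knockout stimulated libraries. The 12 neutrophil markers, of which Ly6g was at 0, summed to 88.5-90.9, 117-120, 124-136 and 155-192 CPM in the same order. The fibroblast and neutrophil sums were thus higher in the libraries labelled knockout in both treatments. The macrophage sum was higher there without overlap in vehicle only. The 6 tested neutrophil markers had a median log2 genotype difference of 0.78 in vehicle but -0.45 when stimulated. In each treatment 2 of the 6 were called higher and 1 lower. When stimulated, the neutrophil sum and the median marker therefore went in opposite directions. For the 13 tested fibroblast and mesothelial markers the medians were 0.35 and 0.72. The part of these sums in the results was not tested. In bulk samples fewer cells of a type and less RNA per cell cannot be told apart. Whether the 3 libraries of a group came from separate animals is not stated, so p-values measure the spread between these libraries.

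The response to palmitate plus LPS was called for 8612 genes (66.7% of those tested) in the controls and for 8956 (69.4%) in the libraries labelled knockout. The size or direction of the response differed by genotype for 1039 genes (8.05% of those tested), at an adjusted p under 0.05 (edgeR quasi-likelihood test, Benjamini-Hochberg over all tested genes). The interaction was higher for 607 genes (4.7%) and lower for 432 (3.35%). This split depended on how libraries were scaled. Higher interactions made up 58.4% of the calls with TMM, 47.8% with upper-quartile factors and 33% with total counts. Differences were mostly modest. The interaction was under 1 log2 unit in size for 802 genes, between 1 and 2 for 204 and 2 or more for 33, with a median size of 0.72. The count also depended on single libraries. It was 467 without control vehicle replicate 1, 428 without control vehicle replicate 2, 500 and 451 without control stimulated replicates 2 and 3, and 523, 623 and 510 without labelled knockout stimulated replicates 1, 2 and 3. It rose to 1752 and 1962 without labelled knockout vehicle replicates 1 and 3. Each of the 1039 genes kept the sign of its interaction in every setting in which it was tested. These genes were chosen by their call in the same libraries, so the kept sign is no separate support.

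Most interaction genes changed in size of response, not in direction. Of the 1039, 409 were induced in both genotypes and 255 repressed in both. Another 106 were induced and 83 repressed in the libraries labelled knockout with no call in the controls, and 44 induced and 73 repressed genes of the controls had no call in the libraries labelled knockout. The remaining 69 responded in opposite directions, 26 induced in the controls and repressed in the libraries labelled knockout and 43 the other way round.

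Sorting placed 735 of the 1039 genes (70.7%) in the class whose genotype difference was called in stimulated libraries only. The difference was called in vehicle only for 114 genes (11%) and in neither treatment for 132 (12.7%). It was called in both treatments with opposite directions for 41 (3.95%) and with the same direction for 17 (1.64%). Where a gene is said to differ in 1 treatment only, the other difference was not called, which does not show it to be absent. Sorted by the relative size of the 2 differences instead, 614 genes counted as stimulated, 127 as vehicle and 298 as both. Over all tested genes the genotype difference was called for 2081 (16.1%) in stimulated libraries and for 491 (3.8%) in vehicle, so the stimulated class was also the one with more calls to draw on. The stimulated class was the most numerous under every alternative run, although its count ranged from 313 without control stimulated replicate 3 to 1359 without labelled knockout vehicle replicate 1. In the plot of genotype differences by treatment the classes form arms along the axes, a layout that the sorting rule itself sets.

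**Figure D1:**
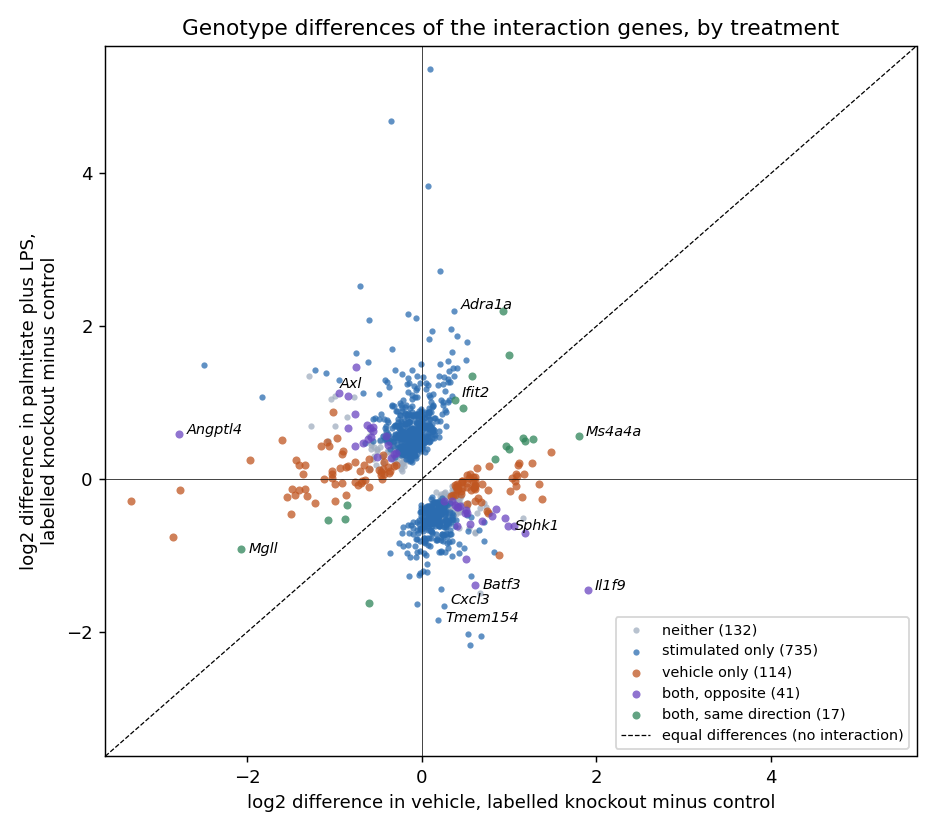
Each point is 1 of the 1039 interaction genes, placed by its log2 genotype difference in vehicle (x axis) and in palmitate plus LPS (y axis) and coloured by sorting class, with the class size in brackets. The 735 genes of the stimulated class lie along the vertical axis, the 114 of the vehicle class along the horizontal axis, and the dashed line marks equal differences.

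Within the stimulated class, 455 genes had a higher and 280 a lower interaction. Of the 455, 271 were induced in controls, 106 repressed and 78 not called. Of the 280, 91 were induced, 134 repressed and 55 not called. Among all tested genes 32% were induced in controls and 34.7% repressed. So the higher genes were induced ones in 59.6% of cases and the lower genes repressed ones in 47.9%. In the vehicle class the order was the other way round: 39 of 59 higher interactions were of genes repressed in controls, and 35 of 55 lower interactions were of genes induced in controls. The control vehicle level enters the class, the interaction and the control response. A high level raises the interaction and lowers the response, so the arithmetic itself favours this order, which is no separate result.

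**Figure D2:**
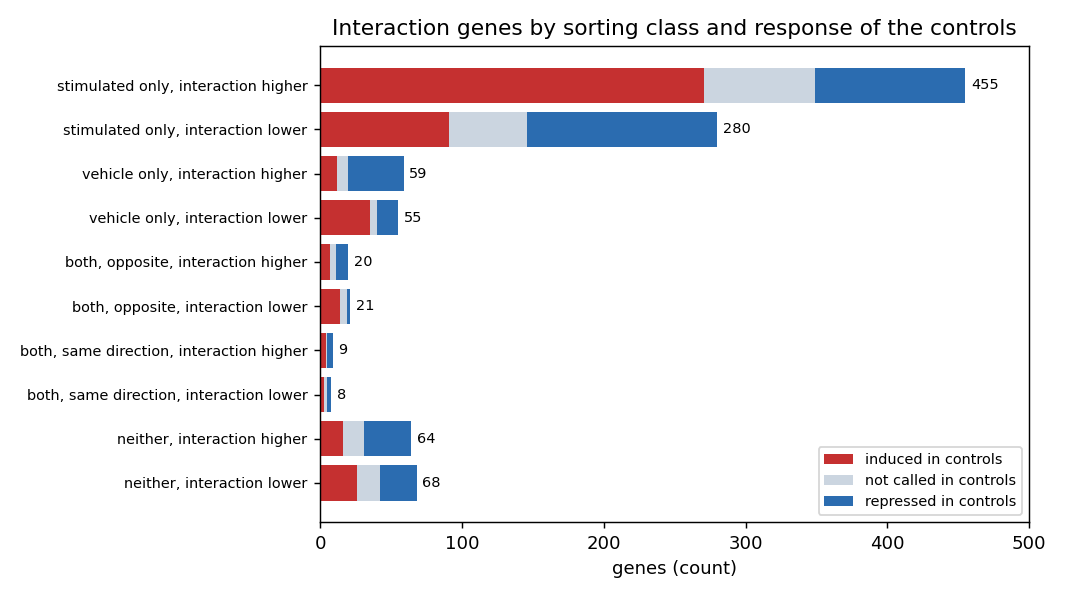
Bars give the number of interaction genes in each sorting class and direction of the interaction, divided by whether palmitate plus LPS induced, repressed or did not significantly change the gene in the controls. The stimulated class holds 455 higher and 280 lower genes, and 271 of the former were induced in controls.

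The 3 promoter windows printed here each carry a motif that belongs to a gene group with interaction calls: an interferon-stimulated gene, a chemokine of the NF-kB arm and a glutathione gene. Each is the 250 bases before the RefSeq start, read 5′ to 3′ on the gene's strand, on GRCm38.p6, with motif matches in capitals. Slfn9 lies at chr11:82991831-82992080 (minus strand), with the interferon-stimulated response element core in capitals. Cxcl3 lies at chr5:90785851-90786100 (plus strand), with NF-kB matches in capitals, of which 2 overlap on opposite strands. Gclm lies at chr3:122245307-122245556 (plus strand), with the antioxidant response element core in capitals.
Slfn9: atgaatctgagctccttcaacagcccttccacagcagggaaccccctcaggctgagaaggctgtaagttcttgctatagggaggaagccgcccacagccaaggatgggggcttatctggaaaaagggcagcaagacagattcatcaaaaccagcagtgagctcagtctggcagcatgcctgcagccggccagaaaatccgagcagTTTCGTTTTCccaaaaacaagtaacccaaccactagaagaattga
Cxcl3: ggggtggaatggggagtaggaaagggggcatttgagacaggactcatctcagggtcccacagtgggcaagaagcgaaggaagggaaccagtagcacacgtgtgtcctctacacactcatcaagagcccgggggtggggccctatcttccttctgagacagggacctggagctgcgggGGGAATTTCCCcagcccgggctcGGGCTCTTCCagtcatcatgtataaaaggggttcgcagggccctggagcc
Gclm: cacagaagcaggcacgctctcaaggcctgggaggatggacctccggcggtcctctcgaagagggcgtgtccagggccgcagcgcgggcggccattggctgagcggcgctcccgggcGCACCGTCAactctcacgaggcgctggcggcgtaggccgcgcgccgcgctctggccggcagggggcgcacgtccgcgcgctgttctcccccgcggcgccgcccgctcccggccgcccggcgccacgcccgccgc
In windows of 300 bases (250 before to 50 after a start), the interferon-stimulated response element core (GAAA and GAAA with 2 free bases between them) was found on either strand in 3.32% of 12377 promoters of tested genes. It was found in 34 of 486 promoters (7%) of the stimulated class with a higher interaction and in 8 of 279 (2.87%) of that class with a lower one. The antioxidant response element core TGACNNNGC was found in 14.6% of promoters of tested genes and in 53 of those 279 (19%). The NF-kB motif (GGG, 3 free bases and TTCC) was found in 6.34% of promoters of tested genes, in 39 of the 486 (8.02%) and in 13 of the 279 (4.66%). The direct repeat of AGGNCA with 1 free base between the copies, the form bound by PPAR with its partner, was found in 0.218% of promoters of tested genes. It was found in 1 of 70 promoters of the vehicle class with a higher interaction and in 1 of the 486. A further match lay in 1 of 64 promoters of the class called in neither treatment with a lower interaction. No other class and direction held a match. AP-1, as TGANTCA, was found in 5.45% of promoters of tested genes and in 19 of the 486 (3.91%). Different motifs may overlap in a window. RefSeq promoters were matched for 9702 of the 12914 tested genes, and a match is a description of letters, not of binding.

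Interferon-stimulated genes, the longest list, had the most interaction calls by number (23 of 73, 31.5%), although other lists, such as NRF2 (12 of 32, 37.5%) and scavenger genes (11 of 31, 35.5%), had more per measured member. Of 73 measured, 22 had a higher interaction and 1 (Rtp4) a lower one, against 4.7% and 3.35% of all tested genes, and the list's median interaction was 0.34 against -0.01 over all tested genes. The 22 were Tnfsf10, Slfn9, Gbp9, Stat2, Dtx3l, Ifi209, Lgals3bp, Ifi44, Slfn8, Samhd1, Isg20, Ifih1, Daxx, Ifit2, Cmpk2, Irgm2, Ddx58, Oasl1, Sp100, Ifi207, Eif2ak2 and Oasl2. For 20 of them the genotype difference was called in stimulated libraries only. The genotype difference of the list was wider than its interaction: 64 of 73 were higher in stimulated libraries labelled knockout (against 10% of all tested genes) and 10 in vehicle (against 2.11%), with medians of 0.58 and 0.22. The higher count was 12 without control vehicle replicate 2 and 14 without control stimulated replicate 3. The response element core was found in 37 of 72 promoters of the measured members (51.4%) and in 9 of 28 promoters of those with a higher interaction (32.1%).

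Slfn9, a Schlafen family member whose upstream sequence is printed above, read 1.68, 1.53 and 2.27 CPM in control vehicle, 0.943, 1.47 and 1.65 in labelled knockout vehicle, 23.1, 22.9 and 19.6 in control stimulated and 53.2, 47.7 and 50.6 in labelled knockout stimulated libraries. The vehicle groups overlapped and the stimulated groups did not. Its interaction was 1.59 ± 0.24 (approximate SE; edgeR adjusted p = 0.00139). Slfn8 and Slfn9 are near-identical neighbours, and Ifi207 and Ifi209 are close relatives, so reads could have been split between them. Ifi209, of the interferon-inducible p200 family, read 15.7, 16.5 and 14.4 and 15.8, 18.7 and 16.5 CPM in vehicle and 543, 599 and 563 and 1153, 1055 and 1102 when stimulated, controls first. Its induction was 5.19 ± 0.10 log2 units in controls and 6.02 ± 0.10 in the libraries labelled knockout, an interaction of 0.83 ± 0.12 (edgeR adjusted p = 0.00117). Samhd1, a nucleotide hydrolase that restricts retroviruses, rose from 163 ± 5.66 to 882 ± 65.2 CPM (SD, n = 3) in controls and from 149 ± 10.3 to 1376 ± 88.5 in the libraries labelled knockout. Its stimulated groups did not overlap, and the interaction was 0.77 (edgeR adjusted p = 0.00139). Tnfsf10, the death ligand TRAIL, was near the limit of counting in vehicle, at 0.187, 0.421 and 0.354 CPM in controls and 0.262, 0.0796 and 0.0825 in the libraries labelled knockout, so its fitted interaction of 2.66 rests on few counts. When stimulated it read 13.4, 15.2 and 12.3 and 34.4, 35.6 and 40.1 CPM, groups that did not overlap.

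A few genes that sense nucleic acids or relay the interferon signal had a higher interaction. Of 24 measured genes of interferon production and receptor signalling, 4 had a higher interaction (Tlr3, Ikbke, Irf5 and Tyk2) and 1 a lower one (Socs3), against 4.7% and 3.35% of all tested genes, and 19 were not called. The higher count was 2 without control vehicle replicate 2, control stimulated replicate 3, or labelled knockout stimulated replicate 1 or 3. Tlr3, the endosomal receptor for double-stranded RNA, read 4.33, 5.44 and 5.71 CPM in control vehicle and 2.73, 5.06 and 6.19 in labelled knockout vehicle libraries. When stimulated it read 33.3, 31.7 and 33.6 in controls and 97.5, 75.1 and 92 in the libraries labelled knockout, a higher interaction of 1.54 ± 0.27 (edgeR adjusted p = 0.00346). Ikbke, a kinase that activates interferon regulatory factors, was 145 CPM in control vehicle and 119 in control stimulated libraries, against 128 and 161 in those labelled knockout. Its response was thus -0.28 log2 units in controls and 0.33 in the libraries labelled knockout (interaction 0.61, edgeR adjusted p = 0.0102). Socs3, a feedback inhibitor of cytokine receptors, had an interaction of -0.80 (edgeR adjusted p = 0.0234), which was lost without control vehicle replicate 2 or 3 or control stimulated replicate 2 (adjusted p up to 0.06). Ifnb1, interferon-beta itself, had 7, 8 and 9 counts in control stimulated libraries and 23, 28 and 40 in those labelled knockout, and a single count over the 6 vehicle libraries. Its stimulated difference was 1.96 ± 0.33 (edgeR adjusted p = 0.00121). Its fitted interaction, 3.69 ± 1.97 (edgeR adjusted p = 0.245), rests on that single vehicle count and is no measure of size. The limma-voom fit gave 2.34 and called it (adjusted p = 0.0483).

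Of 22 measured genes of class I and the immunoproteasome, 4 had a higher interaction and none a lower one, although 15 were higher in stimulated libraries labelled knockout. None was lower at an unadjusted p under 0.05 (edgeR), by DESeq2 or by limma-voom. Over all tested genes the shares were 4.7% higher, 3.35% lower and, for the stimulated difference, 10% higher. Only 2 of the 4 were called without control vehicle replicate 2 and only 1 without control stimulated replicate 3. H2-Q6, a non-classical class I gene, read 52.8, 59.5 and 55.4 CPM in control stimulated and 127, 126 and 118 in labelled knockout stimulated libraries, with vehicle means of 2.38 and 2.86. Its interaction was 0.88 ± 0.15 (edgeR adjusted p = 0.00384), and its reads may be shared with neighbouring H2-Q genes. Tap2, a subunit of the peptide transporter, rose to 467 ± 20.3 CPM in controls and 663 ± 16 in the libraries labelled knockout (SD, n = 3), an interaction of 0.47 (edgeR adjusted p = 0.0134, and 0.0545 without control stimulated replicate 3).

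Outside the interferon list, the largest higher interactions of the stimulated class by the naming rule were those of Lipg and Chtf8. Lipg, endothelial lipase, was under 1 CPM in every vehicle library, at 0.598, 0.345 and 0.505 in controls and 0.0524, 0.0398 and 0.289 in the libraries labelled knockout, so its fitted interaction of 2.90 ± 0.53 (edgeR adjusted p = 0.00514) rests on few counts. Its stimulated libraries read 6.84, 7.5 and 7.56 and 13, 15.8 and 17.2 CPM, groups that did not overlap. Chtf8, part of a clamp loader for DNA replication, varied widely within groups, at 14, 12.5 and 8.28 and 2.73, 4.5 and 8.87 CPM in vehicle, controls first, and 9.74, 4.8 and 5.28 and 15.8, 15.7 and 20.4 when stimulated. Its vehicle groups overlapped and its stimulated groups did not (interaction 2.48 ± 0.50, edgeR adjusted p = 0.0117). Adra1a, the alpha-1A adrenergic receptor (chromosome 14, 66635251 to 66733462, plus strand, GRCm38), was repressed, with a response of -2.38 ± 0.12 log2 units in controls and -0.55 ± 0.10 in the libraries labelled knockout. It read 15.3, 15 and 13.8 CPM in control vehicle and 2.74, 2.7 and 3.01 in control stimulated libraries, but 17.2, 21.5 and 18.2 and 13.1, 13.3 and 12.4 in those labelled knockout. All stimulated control libraries lay below all others, and the interaction was 1.83 ± 0.16 (edgeR adjusted p = 1.69e-05). St3gal5, which makes the ganglioside GM3, read 14.9, 12.6 and 7.17 CPM in control vehicle and 14.2, 15.2 and 14.8 in control stimulated libraries, groups that overlapped. In the libraries labelled knockout it went from 11.5, 11.2 and 14.3 to 54.4, 47.8 and 55.2 CPM, an interaction of 1.75 ± 0.26 (edgeR adjusted p = 0.0012). Itpr1, a calcium release channel of the endoplasmic reticulum, read 7.32, 7.62 and 6.41 CPM in control vehicle and 8.69, 9.98 and 8.13 in control stimulated libraries. Those labelled knockout read 5.24, 5.65 and 5.36 and 21.3, 22.2 and 21, and the interaction was 1.66 ± 0.16 (edgeR adjusted p = 3.1e-05). Cd180, a relative of Toll-like receptor 4 that modulates LPS signalling, fell slightly in controls, from 93.7, 100 and 98.7 to 78.7, 75.3 and 77.2 CPM. In the libraries labelled knockout it rose from 85.1, 99.7 and 95.8 to 165, 158 and 164, an interaction of 1.14 ± 0.11 (edgeR adjusted p = 3.1e-05). C3ar1, the receptor for complement C3a, was repressed, with a response of -1.72 log2 units in controls and -0.96 in the libraries labelled knockout. P4ha1, a collagen prolyl hydroxylase induced by hypoxia, was induced by 1.62 and 2.58 log2 units, with an interaction of 0.96 ± 0.11 (edgeR adjusted p = 0.000148).

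Among inflammatory genes of the NF-kB arm, lower interaction calls outnumbered higher ones, and most members were not called. Of 63 measured LPS-responsive cytokine and NF-kB target genes, 12 had a lower interaction and 5 a higher one, against 3.35% and 4.7% of all tested genes, and 46 were not called. The list's median was -0.21, and -0.09 without labelled knockout vehicle replicate 1. The lower ones were Cxcl3, Cd14, Ccl9, Bcl3, Arg2, Sod2, Cxcl16, Osm, Marco, Ptges, Inhba and Acod1. The higher ones were Nos2, Il27, Il12b, Tnfaip3 and Vcam1. Both counts shrank when single libraries were left out: the lower count was 6 without control vehicle replicate 1 or 3, control stimulated replicate 2 or 3, or labelled knockout stimulated replicate 1 or 2, and 7 without control vehicle replicate 2. The higher count was 3 without control vehicle replicate 1 or 2. The NF-kB motif was found in 16 of 45 promoters of the measured members (35.6%) and in 3 of 8 promoters of those with a lower interaction (37.5%).

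Cxcl3, a neutrophil-attracting chemokine (chromosome 5, 90786103 to 90788086, plus strand, GRCm38), read 1.87, 2.18 and 1.82 CPM in control vehicle and 2.78, 1.99 and 2.31 in labelled knockout vehicle libraries. When stimulated it reached 1159, 1439 and 1353 in controls and 397, 425 and 424 in the libraries labelled knockout, so the vehicle groups overlapped and the stimulated ones were far apart. The interaction was -1.91 ± 0.19 (edgeR adjusted p = 4.31e-05). Ccl9, a chemokine for myeloid cells, read 142, 144 and 151 and 175, 134 and 119 CPM in vehicle, controls first, and 1397, 1749 and 1643 and 674, 659 and 716 when stimulated. Its interaction was -1.20 ± 0.17 (edgeR adjusted p = 0.000867). Il27, the p28 subunit of an interleukin-12 family cytokine, moved in the opposite direction, at 546, 545 and 517 CPM in control stimulated and 1334, 1321 and 1203 in labelled knockout stimulated libraries. Its vehicle means were 2.46 and 3.02, and the interaction was 0.96 ± 0.15 (edgeR adjusted p = 0.00173). Tnfaip3, the ubiquitin-editing inhibitor A20, was induced by 2.97 log2 units in controls and by 3.83 in the libraries labelled knockout (interaction 0.85, edgeR adjusted p = 0.00996). Among cytokines central to the LPS response, Tnf and Il6 gave no call. Tnf reached 2306, 2259 and 2385 CPM in controls and 2595, 2689 and 2309 in the libraries labelled knockout (interaction -0.08 ± 0.11, edgeR adjusted p = 0.663), and Il6 reached 699, 708 and 727 and 757, 818 and 739 (interaction -0.10 ± 0.22, edgeR adjusted p = 0.8).

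Interleukin-1 beta and its antagonist had interactions of opposite sign. Il1b, the inflammasome-processed cytokine (chromosome 2, 129364570 to 129371139, minus strand, GRCm38), read 7.58, 6.89 and 7.02 CPM in control vehicle and 9.96, 7.6 and 7.59 in labelled knockout vehicle libraries. When stimulated it read 3568, 4710 and 4215 in controls and 2419, 1960 and 2058 in the libraries labelled knockout, and every stimulated control library was above every one labelled knockout. Induction was 9.18 ± 0.17 log2 units in controls and 8.01 ± 0.16 in the libraries labelled knockout, an interaction of -1.17 ± 0.18 (edgeR adjusted p = 0.00175). Il1rn, which blocks the interleukin-1 receptor, was higher in the libraries labelled knockout in both treatments, at 363, 309 and 290 against 218, 234 and 241 CPM in vehicle and 2388, 2543 and 2556 against 1233, 1383 and 1311 when stimulated. Its interaction of 0.46 ± 0.12 was weakly supported: the adjusted p was 0.0364 with edgeR, and the call was lost in 12 of 21 other settings (adjusted p up to 0.0964), among them without any 1 library other than labelled knockout vehicle replicates 1 and 3. Of the 28 measured genes of interleukin-1 and the inflammasome, 4 had a higher interaction (P2rx7, Aim2, Il1rn and Nlrp10) and Il1b alone a lower one, a share near the 3.35% of all tested genes (4.7% for higher). The higher count was 1 without control vehicle replicate 2 or labelled knockout stimulated replicate 1 or 3, 2 without control vehicle replicate 1 or 3, control stimulated replicate 2 or 3, or labelled knockout stimulated replicate 2, and 7 without labelled knockout vehicle replicate 1. P2rx7, the ATP-gated channel that triggers the NLRP3 inflammasome, fell from 68.2, 64.9 and 60.3 to 50.3, 42.1 and 43.3 CPM in controls and rose from 46.5, 66.1 and 62.1 to 74.6, 87.5 and 81.6 in the libraries labelled knockout. Its interaction was 0.99 ± 0.17 (edgeR adjusted p = 0.00292). The interactions of Il1a (-0.20), Il18 (-0.09), Casp1 (-0.07) and Nlrp3 (0.56) had adjusted p of 0.323, 0.814, 0.787 and 0.185 with edgeR. The Nlrp3 interaction passed the threshold when no filter on low counts was applied (adjusted p = 0.0141).

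The gene with the smallest interaction p-value was Tmem154, a transmembrane protein gene (chromosome 3, 84666192 to 84704575, plus strand, GRCm38). It read 160, 165 and 171 CPM in control vehicle and 190, 193 and 182 in labelled knockout vehicle libraries, and 49.6, 47.6 and 50.4 and 15.2, 13.4 and 12.5 when stimulated. Palmitate plus LPS thus lowered it, with a response of -1.75 ± 0.08 log2 units in controls and -3.78 ± 0.09 in the libraries labelled knockout (interaction -2.03 ± 0.12, edgeR adjusted p = 1.76e-07). Tmem154, Il1b, Il27, Cd180, Evl, Sphk1 and Mgll each overlap a tested gene on the other strand, and whether counting used strand is not given in the sources used here, so their reads may include those of the partner. Lyz2, lysozyme 2, from whose locus the Cre is driven in both genotypes, was induced from 21.2 to 114 CPM in controls and from 26.6 to 84.3 in the libraries labelled knockout. Its interaction was -0.76 ± 0.15 (edgeR adjusted p = 0.00756), and its reads may be shared with the near-identical Lyz1. S100a8, a calgranulin and neutrophil marker, read 12.1, 15.9 and 16.9 CPM in control stimulated and 6.82, 6.67 and 7.3 in labelled knockout stimulated libraries (interaction -1.18 ± 0.25, edgeR adjusted p = 0.0113), the opposite direction to the sum of the neutrophil markers.

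**Figure D3:**
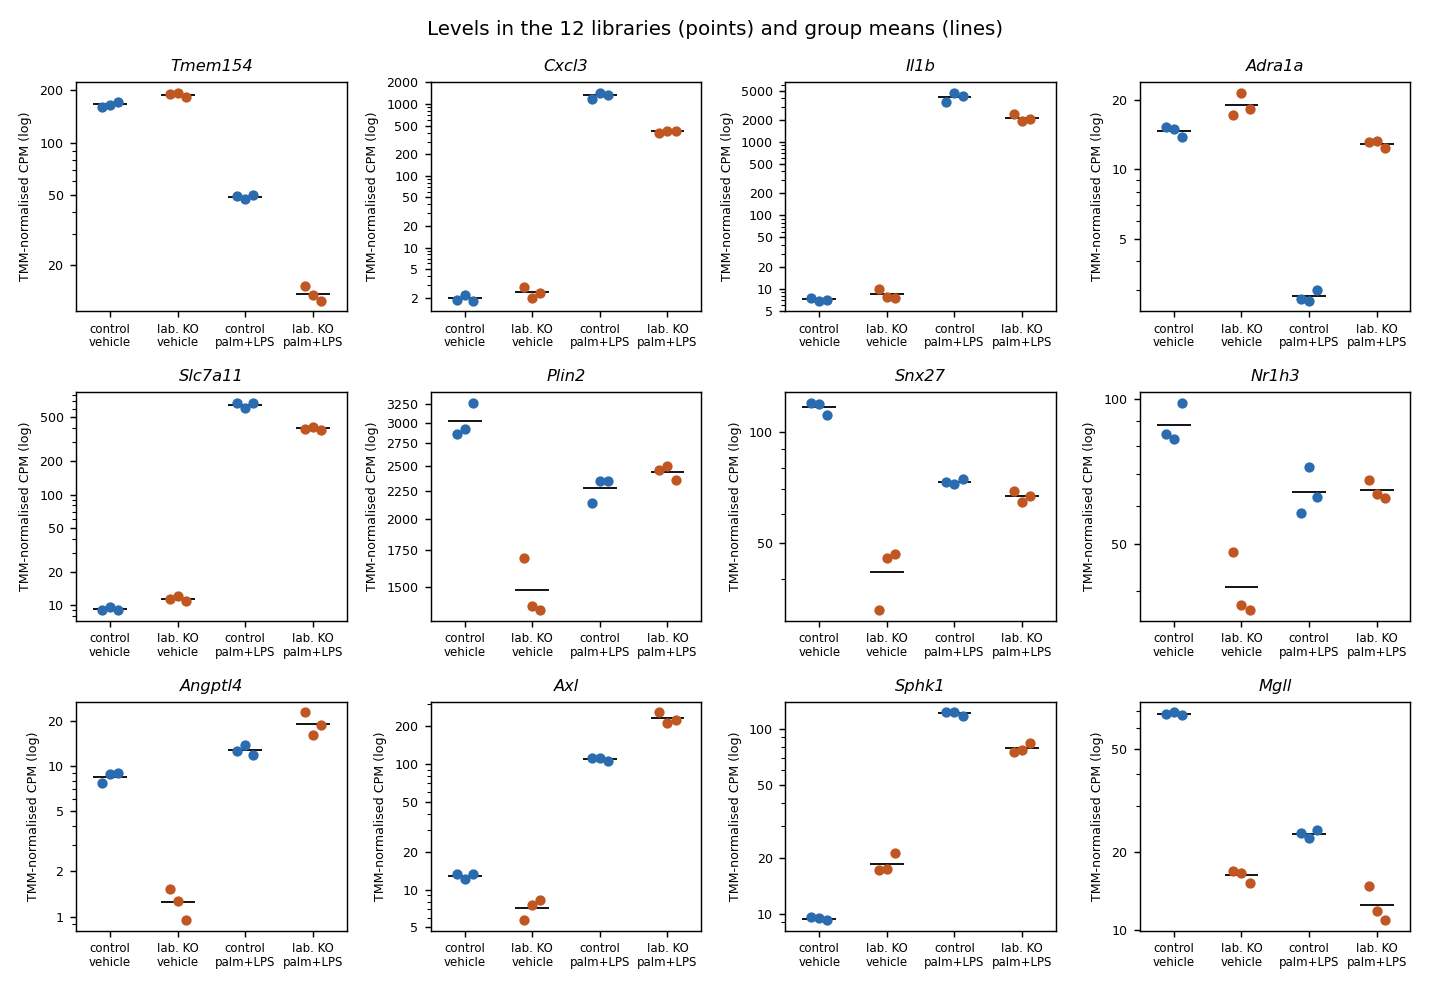
Points are TMM-normalised CPM (log axis) of 12 genes in each of the 12 libraries, blue for controls and orange for libraries labelled knockout, and lines are group means. Tmem154, Cxcl3, Il1b, Adra1a and Slc7a11 differ between genotypes when stimulated, Plin2, Snx27 and Nr1h3 in vehicle, Angptl4, Axl and Sphk1 in both with opposite signs, and Mgll in both with the same sign.

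Genes of the NRF2 oxidative stress response, which supply glutathione and clear oxidants, had lower interaction calls only. Of 32 measured, 12 had a lower interaction (against 3.35% of all tested genes), none a higher one and 20 were not called, and the median was -0.44. A higher interaction was found for 1 at an unadjusted p under 0.05 (edgeR), and DESeq2 and limma-voom called none higher. The 12 were Cbr3, Slc7a11, Gclm, Nqo1, Esd, Blvrb, Srxn1, Prdx6, Gpx1, Taldo1, Hmox1 and Cat. The genotype difference was called in stimulated libraries only for 8 of them and in neither treatment for 4. The count was 4 without control vehicle replicate 1 or 2, control stimulated replicate 2 or 3, or labelled knockout stimulated replicate 1 or 3, and 7 without labelled knockout stimulated replicate 2. Without labelled knockout vehicle replicate 1, the library that stood apart, 14 were lower and the median was -0.31. Slc7a11, the cystine importer that feeds glutathione synthesis, read 9, 9.61 and 9.09 CPM in control vehicle and 11.4, 12.1 and 11 in labelled knockout vehicle libraries, and 670, 607 and 679 and 392, 410 and 387 when stimulated. The stimulated groups were apart by -0.72 ± 0.07 log2 units and the interaction was -1.03 ± 0.11 (edgeR adjusted p = 8.72e-05). Gclm, the modifier subunit of glutamate-cysteine ligase, whose upstream sequence is printed above, rose from 6.69 ± 0.647 to 41.8 ± 4.18 CPM in controls and from 8.82 ± 1.43 to 28.9 ± 1.36 in the libraries labelled knockout (SD, n = 3; interaction -0.92 ± 0.17, edgeR adjusted p = 0.00522). Srxn1, which repairs over-oxidised peroxiredoxins, had an interaction of -0.62 ± 0.12 (edgeR adjusted p = 0.00574). Cbr3, a carbonyl reductase, rose in controls from 4.23 to 5.84 CPM and fell in the libraries labelled knockout from 4.36 to 2.92 (interaction -1.04 ± 0.20, edgeR adjusted p = 0.00668). The antioxidant response element core was found in 12 of 39 promoters of the measured members (30.8%) and in 2 of 11 promoters of those with a lower interaction (18.2%).

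Of 26 measured genes of cholesterol synthesis and uptake, 8 had a lower interaction (Pmvk, Ebp, Nsdhl, Fdps, Dhcr7, Mvk, Mvd and Msmo1) and none a higher one, against 3.35% and 4.7% of all tested genes, with a median of -0.25. At an unadjusted p under 0.05 (edgeR) 1 was higher, and DESeq2 and limma-voom called none higher. The stimulated difference was called for 15, all lower in the libraries labelled knockout, against 6.1% of all tested genes. The interaction count was fragile: it was 1 without control vehicle replicate 1 or 2 or control stimulated replicate 2, 2 without labelled knockout stimulated replicate 2, and 3 without control stimulated replicate 3 or labelled knockout stimulated replicate 1 or 3. Nsdhl, a sterol dehydrogenase, held its call in every setting. It read 54.2, 54.6 and 61.4 and 71, 58.3 and 54.3 CPM in vehicle, controls first, and 48.6, 55 and 52.3 and 37.2, 34.8 and 35.1 when stimulated (interaction -0.65 ± 0.14, edgeR adjusted p = 0.0128). Scarb1, the receptor for high-density lipoprotein, likewise held its call, at 44.5, 46.4 and 43.1 CPM in control stimulated and 26.1, 31.6 and 29.2 in labelled knockout stimulated libraries against vehicle means of 105 and 106 (interaction -0.64 ± 0.12, edgeR adjusted p = 0.00537).

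PPAR target genes with an interaction differed mostly in vehicle. Of 36 measured, 9 had a higher interaction (Angptl4, Plin2, Mgll, Nr1h3, Pnpla2, Cpt1a, Hadha, Acadl and Hadhb) and 2 a lower one (Olr1 and Lpl). The shares over all tested genes were 4.7% and 3.35%. Of the 9, 6 differed in vehicle only, 2 in both treatments with opposite signs and 1 in both with the same sign. In vehicle 12 of the 36 were lower in the libraries labelled knockout (against 1.69% of all tested genes) and none higher (against 2.11%). When stimulated 11 were lower (against 6.1%) and 2 higher (against 10%). The higher count lay between 8 and 10 whichever library was left out, and the lower count rose to 5 without labelled knockout vehicle replicate 1. The direct repeat motif was in none of the 29 matched promoters of the list.

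Plin2, which coats lipid droplets (chromosome 4, 86648386 to 86670060, minus strand, GRCm38), read 2856, 2925 and 3263 CPM in control vehicle and 1697, 1384 and 1359 in labelled knockout vehicle libraries, 2 groups well apart. When stimulated it read 2138, 2341 and 2342 and 2460, 2502 and 2350, so that the genotypes met near the same level: the response was -0.41 ± 0.09 log2 units in controls and 0.72 ± 0.09 in libraries labelled knockout. The interaction was 1.13 ± 0.13 (edgeR adjusted p = 0.000149). Nr1h3, the oxysterol receptor LXR alpha, also differed in vehicle. It read 84.6, 82.7 and 98.3 CPM in control vehicle and 48.3, 37.5 and 36.5 in labelled knockout vehicle libraries, and 58, 72.3 and 62.7 and 68, 63.7 and 62.3 when stimulated, groups that overlapped. Its interaction was 1.13 ± 0.16 (edgeR adjusted p = 0.00111). Pnpla2, the first lipase of triglyceride breakdown, was 302 ± 16.7 CPM in control vehicle and 177 ± 11.2 in labelled knockout vehicle libraries (SD, n = 3), and 150 ± 6.47 and 146 ± 4.95 when stimulated (interaction 0.74 ± 0.11, edgeR adjusted p = 0.00117). Acadl, long-chain acyl-CoA dehydrogenase, was induced from 127, 127 and 127 to 187, 201 and 196 CPM in controls and from 90.2, 93.7 and 93.9 to 196, 194 and 196 in the libraries labelled knockout. The stimulated groups overlapped and the vehicle groups did not (interaction 0.46 ± 0.09, edgeR adjusted p = 0.00848). Hadha, of the mitochondrial trifunctional protein, had an interaction of 0.52 ± 0.10 (edgeR adjusted p = 0.00786).

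Within mitochondrial fatty acid oxidation the calls were divided by where the difference lay. Of 21 measured genes, 4 had a higher interaction and 3 a lower one, against 4.7% and 3.35% of all tested genes. Of the 4, 3 differed through the vehicle level and Cpt1a through both. Cpt1a, Hadha and Acadl were among the 4 and were also counted with the PPAR target genes, so these lists are not separate results. The 3 with a lower interaction differed in stimulated libraries only, and they numbered 5 without labelled knockout vehicle replicate 3. Echs1, enoyl-CoA hydratase, fell from 146 ± 6.5 to 97.1 ± 8.33 CPM in controls and from 164 ± 24.5 to 67.2 ± 2.61 in the libraries labelled knockout (SD, n = 3; interaction -0.70 ± 0.14, edgeR adjusted p = 0.00899). Eci1, an enoyl-CoA isomerase, had an interaction of -0.63 ± 0.14 (edgeR adjusted p = 0.0157). Of 14 measured genes of triglyceride synthesis and lipolysis, 4 had a higher interaction and none a lower one, with a median of 0.40. Mgll and Plin2 were among these 4 and were likewise counted with the PPAR target genes. Over all tested genes 4.7% were higher and 3.35% lower. Without labelled knockout vehicle replicate 1, 6 of the 14 were higher and 1 lower. Lpl, lipoprotein lipase, had a lower interaction. Its vehicle groups overlapped, at 3034, 3076 and 3169 CPM in controls and 3428, 2980 and 2987 in the libraries labelled knockout. When stimulated it read 2319, 2637 and 2471 and 1676, 1696 and 1768 (interaction -0.55 ± 0.11, edgeR adjusted p = 0.00868). Olr1, the receptor for oxidised low-density lipoprotein, was induced by 5.92 log2 units in controls and 4.69 in the libraries labelled knockout (interaction -1.22 ± 0.24, edgeR adjusted p = 0.00777).

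Other genes of the vehicle class were not on a lipid list. Snx27, a sorting nexin of endosomal recycling, read 120, 119 and 111 CPM in control vehicle and 32.8, 45.6 and 46.5 in labelled knockout vehicle libraries. When stimulated it read 73.3, 72.1 and 74.3 and 68.9, 64.6 and 67.1, so controls fell and libraries labelled knockout rose toward a common level (interaction 1.35 ± 0.15, edgeR adjusted p = 0.00012). Itpk1, an inositol phosphate kinase, was 22.7, 22.8 and 23.8 and 7.44, 8.8 and 10.6 CPM in vehicle, controls first, and 25.4, 23.1 and 21.6 and 25, 24.4 and 23.6 when stimulated (interaction 1.42 ± 0.16, edgeR adjusted p = 0.000115). Ly75, the endocytic receptor DEC-205, was 12.5 ± 0.737 and 4.91 ± 0.906 CPM in vehicle and 39.3 ± 5.12 and 36.1 ± 2.56 when stimulated (SD, n = 3; interaction 1.21 ± 0.18, edgeR adjusted p = 0.00139). Fcgr4, an activating receptor for immunoglobulin G, had an interaction of 1.24 ± 0.21 (edgeR adjusted p = 0.00257).

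In the other direction, some genes were higher in vehicle libraries labelled knockout and had no genotype call when stimulated. Tgfbi, a secreted matrix protein, read 17.3, 14.2 and 16.6 CPM in control vehicle and 35, 39 and 34.2 in labelled knockout vehicle libraries, and 8.37, 10.5 and 8.13 and 10.9, 8.62 and 8.78 when stimulated. Only the vehicle groups were apart (interaction -1.11 ± 0.18, edgeR adjusted p = 0.0022). Il21r, the interleukin-21 receptor, read 2.61, 2.34 and 2.93 and 7.23, 7.25 and 7.34 CPM in vehicle and 8.05, 9.6 and 7.93 and 8.18, 11.3 and 13 when stimulated (interaction -1.13 ± 0.23, edgeR adjusted p = 0.00868). Car2, carbonic anhydrase 2, was under 3 CPM in vehicle, at 0.934, 0.995 and 0.707 in controls and 2.1, 1.95 and 1.65 in the libraries labelled knockout, and reached 81, 91.2 and 92.3 and 69, 87.3 and 92.2 (interaction -1.17 ± 0.24, edgeR adjusted p = 0.00915). Galnt9, a glycosyltransferase that starts mucin-type glycans, fell from 32.3 to 2.21 CPM in controls and from 67.7 to 2.18 in the libraries labelled knockout (interaction -1.09, edgeR adjusted p = 0.0117). Clec7a, the beta-glucan receptor Dectin-1, had an interaction of -0.55 (edgeR adjusted p = 0.0128). Rtp4, the sole interferon-stimulated gene with a lower interaction, reached 949, 1063 and 1047 CPM in controls and 1032, 1018 and 1034 in the libraries labelled knockout from 15.6, 15.8 and 16.8 and 28.7, 20.7 and 21.1. Its call (interaction -0.53, edgeR adjusted p = 0.041) was lost in 9 of 21 other settings (adjusted p up to 0.109), among them without any 1 control vehicle or labelled knockout stimulated library and without control stimulated replicate 2 or 3.

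The 41 genes called in both treatments with opposite signs had a median interaction of 1.20 for the 20 higher and 1.14 in size for the 21 lower. Differences of opposite sign add up in the interaction, so wide values follow from the sorting rule. Angptl4, a PPAR target and inhibitor of lipoprotein lipase (chromosome 17, 33773750 to 33781575, minus strand, GRCm38), was among those with the largest interactions in size, with Il1f9. It read 7.66, 8.8 and 9.04 CPM in control vehicle and 1.52, 1.27 and 0.948 in labelled knockout vehicle libraries, a difference of -2.78 ± 0.18 log2 units. When stimulated the order turned, with 12.5, 13.7 and 11.9 in controls and 22.7, 16.1 and 18.6 in the libraries labelled knockout, and the interaction was 3.37 ± 0.23 (edgeR adjusted p = 1.31e-06). Axl, a receptor tyrosine kinase for apoptotic cell clearance, read 13.4, 12.2 and 13.2 and 5.71, 7.52 and 8.29 CPM in vehicle, controls first, and 111, 111 and 105 and 257, 211 and 225 when stimulated. The groups were apart in both treatments, and the interaction was 1.93 ± 0.16 (edgeR adjusted p = 1.01e-05). Its relative Mertk read 69.2, 67 and 62.5 and 31.3, 51.3 and 49.8 CPM in vehicle and 92.2, 81.1 and 88.5 and 149, 116 and 119 when stimulated (interaction 1.13 ± 0.21, edgeR adjusted p = 0.00517). Cpt1a, which admits long-chain fatty acids to mitochondria, read 70.1, 68.5 and 66.8 CPM in control vehicle and 61.5, 62.7 and 64.4 in control stimulated libraries. In the libraries labelled knockout it went from 31.8, 49 and 47.3 to 86.3, 86.1 and 89.5 (interaction 1.15 ± 0.17, edgeR adjusted p = 0.0012). Rgs1, which dampens chemokine receptor signalling, was 294 ± 4.2 and 200 ± 23.4 CPM in vehicle and 569 ± 26.1 and 911 ± 96.8 when stimulated (SD, n = 3; interaction 1.24 ± 0.13, edgeR adjusted p = 8.72e-05). Evl, an actin regulator, had an interaction of 1.34 ± 0.12 (edgeR adjusted p = 1.55e-05). Lgals3bp, an interferon-stimulated glycoprotein, was the one member of that list in this class, with vehicle means of 191 and 146 CPM and stimulated means of 969 and 1318 (interaction 0.83, edgeR adjusted p = 0.00121).

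Among the 21 genes higher in vehicle and lower when stimulated were the LPS co-receptor and a sphingolipid kinase. Cd14, which hands LPS to Toll-like receptor 4, read 254, 268 and 288 CPM in control vehicle and 569, 439 and 400 in labelled knockout vehicle libraries, and 1910, 2244 and 2117 and 1497, 1431 and 1552 when stimulated. The interaction was -1.28 ± 0.16 (edgeR adjusted p = 0.000302). Sphk1, which makes sphingosine 1-phosphate, read 9.6, 9.46 and 9.24 and 17.2, 17.4 and 21.4 CPM in vehicle and 123, 123 and 118 and 75.4, 76.9 and 84.4 when stimulated. No groups overlapped, and the interaction was -1.61 ± 0.13 (edgeR adjusted p = 1.01e-05). Cav1, the coat protein of caveolae, was induced from 10.6, 12.1 and 12.2 to 211, 210 and 210 CPM in controls and from 22.7, 23.2 and 21.8 to 122, 154 and 166 in the libraries labelled knockout (interaction -1.47 ± 0.15, edgeR adjusted p = 4.31e-05). Gpr84, a receptor for medium-chain fatty acids, was 0.896, 0.766 and 1.41 and 2.57, 2.07 and 2.23 CPM in vehicle and 92, 117 and 105 and 65, 63.5 and 64.6 when stimulated (interaction -1.89 ± 0.23, edgeR adjusted p = 0.000307). Batf3, an AP-1 family transcription factor, rose in controls from 3.66, 3.98 and 4.75 to 11.3, 12.3 and 12.7 CPM and fell in the libraries labelled knockout from 6.81, 6.57 and 5.48 to 5.24, 4.01 and 4.62. Its interaction was -2.00 ± 0.20 (edgeR adjusted p = 4.31e-05). Il1f9, interleukin-36 gamma, was under 1 CPM in every vehicle library and reached 13.3, 17.4 and 16.7 CPM in controls and 5.35, 5.85 and 6.04 in the libraries labelled knockout. Its fitted interaction of -3.36 rests on vehicle levels of 0.224, 0.115 and 0.303 and 0.891, 0.756 and 0.742 CPM. Ier3, an immediate early gene, had an interaction of -1.23 ± 0.20 (edgeR adjusted p = 0.00255).

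A difference in the same direction in both treatments, but of unequal size, was found for 17 genes. Mgll, the lipase that releases the last fatty acid of a triglyceride, read 68.2, 69 and 67.3 CPM in control vehicle and 16.9, 16.6 and 15.2 in labelled knockout vehicle libraries, and 23.7, 22.6 and 24.2 and 14.8, 11.8 and 10.9 when stimulated. The libraries labelled knockout were lower throughout, with differences of -2.07 ± 0.10 log2 units in vehicle and -0.91 ± 0.11 when stimulated, so the higher interaction of 1.16 ± 0.14 (edgeR adjusted p = 0.000343) came from a smaller gap. Cd86, a co-stimulatory ligand for T cells, was higher in both and more so when stimulated. It read 12.8, 13.8 and 13.7 and 18.8, 20.9 and 20.5 CPM in vehicle and 127, 143 and 135 and 362, 329 and 341 when stimulated (interaction 0.77 ± 0.11, edgeR adjusted p = 0.00117). Ifit2, an interferon-stimulated RNA-binding protein, read 9.86, 10.5 and 9.6 and 13.1, 12.4 and 13.4 CPM in vehicle and 2771, 2809 and 2789 and 6109, 5283 and 5682 when stimulated (interaction 0.65 ± 0.11, edgeR adjusted p = 0.00384). Htr2b, a serotonin receptor, was higher in the libraries labelled knockout by 1.18 ± 0.10 log2 units in vehicle and 0.49 ± 0.10 when stimulated (interaction -0.68 ± 0.15, edgeR adjusted p = 0.0114). Ms4a4a, a membrane protein of alternatively activated macrophages, was higher by 1.80 ± 0.20 and 0.56 ± 0.17. Its interaction of -1.24 (edgeR adjusted p = 0.0117) was not called without labelled knockout vehicle replicate 1 (adjusted p = 0.0767).

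The 132 genes with an interaction but neither genotype difference called had small shifts in opposite directions, a pattern that the sorting rule favours. The medians were -0.39 in vehicle and 0.37 when stimulated for the 64 higher ones and 0.37 and -0.32 for the 68 lower ones. Ccl6, a chemokine, read 731, 741 and 795 and 1326, 970 and 792 CPM in vehicle and 486, 537 and 480 and 373, 352 and 419 when stimulated (interaction -0.84 ± 0.19, edgeR adjusted p = 0.0179, and up to 0.055 without control vehicle replicate 1 or 2, control stimulated replicate 2 or labelled knockout stimulated replicate 2). Tfeb, a transcription factor of lysosome genes, had an interaction of 0.72 ± 0.18 (edgeR adjusted p = 0.0256), lost in 8 of 21 other settings (adjusted p up to 0.0842), which leave out any 1 control vehicle library, control stimulated replicate 2 or 3, or labelled knockout stimulated replicate 2 or 3, or use total counts. This class was the least stable by count: it held 24 genes without control vehicle replicate 1 and 557 without labelled knockout vehicle replicate 3.

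Several pathways gave few, no or mixed interaction calls, as the plot of calls by gene list shows. For each count below, the shares over all tested genes were 4.7% higher and 3.35% lower. None of 35 measured nuclear genes of oxidative phosphorylation was called with edgeR, although the list's median was -0.31, or -0.12 without labelled knockout vehicle replicate 1. At an unadjusted p under 0.05, 13 were lower. DESeq2 called 1 lower and limma-voom none. With no filter on low counts 13 of the 35 were lower, with total-count scaling 7, and without labelled knockout vehicle replicates 1, 2 and 3, 4, 4 and 8. The 34 measured ribosomal protein genes had a median of -0.39, or -0.16 without labelled knockout vehicle replicate 1, with 1 higher and 1 lower, and 6, 5 and 9 lower without labelled knockout vehicle replicates 1, 2 and 3. The number higher was 0 without any 1 library other than labelled knockout vehicle replicates 1 and 2. Labelled knockout vehicle replicate 1 held the highest share of ribosomal protein counts, and the part of the share in these medians was not tested. None of the 17 measured genes of fatty acid synthesis was called with edgeR, DESeq2 or limma-voom, and 2 were higher and 1 lower at an unadjusted p under 0.05. In edgeR 2 were lower without labelled knockout vehicle replicate 1, 1 was lower without replicate 3 of that group or with total-count scaling, and 2 were higher and 1 lower with no filter on low counts. None of the 10 measured MHC class II genes was called by those 3 tools, and 1 was higher at an unadjusted p under 0.05, without labelled knockout vehicle replicate 3 or with no filter. The unfolded protein response (28 measured genes) gave 1 lower call. It gave 3 without labelled knockout vehicle replicate 1 or 2, 2 without labelled knockout vehicle replicate 3 or labelled knockout stimulated replicate 2, and 0 without control vehicle replicate 1 or 2, control stimulated replicate 3, or labelled knockout stimulated replicate 1 or 3, and DESeq2 gave 4. The cell cycle list (33) gave 1 call in each direction. It gave 2 in each without labelled knockout vehicle replicate 1, 2 lower without control stimulated replicate 1 and 0 lower without control vehicle replicate 2. Glycolysis and the hypoxia response were mixed, with 6 of 30 higher (Car12, Egln3, P4ha1, Pfkfb3, Hk3 and Pfkl) and 2 lower (Adm and Gpi1). The 6 fell to 2 or 3 without any 1 stimulated library or control vehicle replicate 1 or 2, and the 2 rose to 4 without labelled knockout vehicle replicate 3. Scavenger, efferocytosis and complement genes were mixed too, with 6 of 31 higher (Axl, Thbs1, C4b, Mertk, C3 and C3ar1) and 5 lower (Olr1, Vsig4, Scarb1, Marco and C5ar1). The 5 fell to 2 or 3 without any 1 library other than the labelled knockout vehicle ones.

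**Figure D4:**
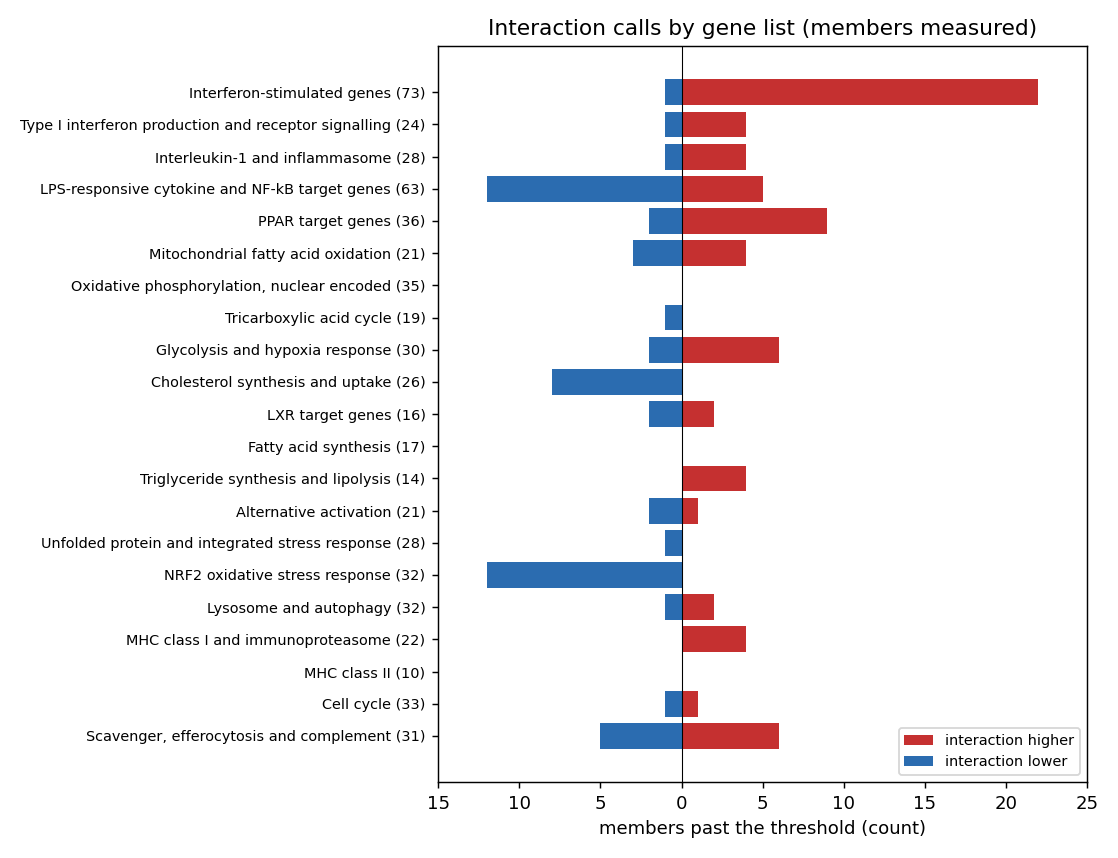
Bars count the members of each gene list whose interaction passed the threshold, higher to the right of 0 and lower to the left, with the number of measured members in brackets. Interferon-stimulated genes have 22 higher and 1 lower, the NRF2 list 0 and 12, cholesterol synthesis 0 and 8, and LPS-responsive genes 5 and 12.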

How the data were processed

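RNA was extracted on Ambion columns and libraries were made with the SMARTer v1 kit, per the labels' protocols. Per the submitters' processing notes, the tools were bcl2fastq 2.0, STAR 2.0.4b, Subread and featureCounts 1.45, with the build GRCm38. Annotation, strand setting and options: not given in the sources used here. Every deposited table holds 41388 genes with raw counts from the authors, and CPM and RPKM that the authors computed from them. The counts were used for every test; the deposited CPM and RPKM were only checked against the counts. A symbol was found for 40254 genes and none for 1134.

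Counts were fitted with edgeR 4.0.16 (quasi-likelihood, robust, TMM, filterByExpr by group, 1 mean for each of the 4 groups) in R 4.3.3, with Benjamini-Hochberg adjustment over 12914 genes and a threshold of 0.05. Printed CPM are TMM-normalised. The approximate SE printed after a log2 estimate is the size of that estimate over the square root of its F statistic. It was back-calculated from each test, so the values of 2 responses need not combine to that of their interaction. The script was tested on simulated data with the same spread for every gene, no outlying library and changes in the labelled knockout stimulated group only. That test does not cover the dependence on single libraries. Limma 3.58.1 (voom) and DESeq2 1.42.0 were alternatives, beside 2 other filters, 3 other scalings, a replicate block, leaving out each library, 2 other sorting rules and fits to 6 libraries. Named genes were a fixed set of 9, up to 6 of each class and sign with the largest interaction and at least 10 CPM in 1 group, the 10 with the smallest p, and up to 4 members (and 2 opposite ones) of each list. Where a count is given with all its members, the other members are named too. The genes, lists and motifs were chosen with earlier results of these data known. Coordinates are the files' own, on GRCm38. Same-numbered libraries were not treated as pairs.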

Additional observations from a re-analysis of the deposited data

Results flagged for a closer look

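The direction of the response differed between the labelled genotypes for 69 genes. Each was called as induced in 1 genotype and repressed in the other, and its interaction passed the threshold, a test of the difference itself. Of the genes named by rule, Raly (interaction 1.51), Evl (1.34), Tcf7l2 (1.27), Snx27 (1.35), Fcgr4 (1.24), Nr1h3 (1.13), Cd180 (1.14), Ikbke (0.61), P2rx7 (0.99) and Plin2 (1.13) fell in controls and rose in libraries labelled knockout. Batf3 (-2.00), Creb3l1 (-1.39), Cbr3 (-1.04) and Rps2 (-0.78) did the reverse. All 14 kept their interaction call (edgeR) in every setting run. Rps2 is a ribosomal protein gene, and the vehicle library of replicate 1 labelled knockout, which had the highest share of ribosomal protein counts, read 47.9 CPM against 34.1 and 41.2 in its partners. Groups of 3 libraries are too small to look for a single outlying value.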

How the results depend on the processing

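Counts below are of edgeR calls unless another tool is named, beside 1039 interaction genes (607 higher, 432 lower), sorted as 735 stimulated, 114 vehicle, 41 opposite, 17 same direction and 132 neither. With no filter on low counts they were 1875 (1087 and 788), sorted as 1141, 251, 125, 32 and 326. Total-count scaling gave 388 higher and 788 lower. DESeq2 gave 30 in the same direction and 247 in neither. Sorting with an unadjusted p gave 238 opposite, 43 in the same direction and 0 in neither. Leaving out 1 library at a time gave 428 to 1962 interaction genes, 276 to 1023 higher, 152 to 939 lower, 313 to 1359 stimulated, 56 to 237 vehicle, 21 to 84 opposite, 6 to 67 in the same direction and 24 to 557 in neither. The vehicle difference was called for 491 genes, 960 with no filter, 229 in a fit to the 6 vehicle libraries and 261 to 789 with 1 library left out; the stimulated one for 2081, 3811 in a fit to the 6 stimulated libraries and 1227 to 4080 with 1 library left out. The causes were not tested. Of 126 named genes past the threshold, 80 kept their call in every one of 21 settings and 118 did so without labelled knockout vehicle replicate 1. The interaction changed sign for Il18 (-0.22 to 0.12 with 1 library left out, 0.00 without control stimulated replicate 2), Casp1 (-0.20 to 0.07) and Il6 (-0.30 to 0.07), each positive without labelled knockout vehicle replicate 1 and none called. Depth limits genes near 0 in vehicle, such as Ifnb1, Tnfsf10 and Il1f9.

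Library titles share replicate numbers across groups. The deviations of same-numbered libraries from their group means had correlations of -0.309 to 0.067, against -0.181 to 0.271 for libraries of different numbers. With 3 libraries a group these values cannot decide whether the numbers pair the samples. A replicate block gave 514 interaction genes (330 higher, 184 lower), sorted as 373 stimulated, 68 vehicle, 23 opposite, 6 in the same direction and 44 in neither, and kept 95 of the 126 named calls.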
